A study of Neurospora crassa OR74A with 13 samples.

Results

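Wild-type Neurospora crassa, a filamentous fungus that lives on plant cell walls, was compared on cellobiose and on sucrose by RNA sequencing of polyadenylated transcripts. The members were chosen from the labels alone: 1 library of the wild type (WT) on cellobiose was set against the 3 WT sucrose libraries, which makes 4 of the 13 libraries of the study. All came from the reference strain FGSC 2489, pregrown with sucrose over 16 h (inoculum 1000000 conidia per mL) and harvested 4 h after transfer to the test medium. Other libraries served as references: 3 of the WT on Avicel (a microcrystalline cellulose), 3 of the WT with no carbon source, and 1 on sucrose of TBGK, a mutant from which 3 beta-glucosidase genes (gh3-4, gh1-1 and gh3-3) were deleted. The TBGK library on cellobiose (1) was used to compare the difference between the sugars in both strains. The TBGK library on Avicel entered only fits to all 13 libraries. The comparison asks how the intact strain reads cellobiose relative to a preferred sugar.

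Cellobiose is a disaccharide of glucose and the main soluble product of cellulose breakdown. Neurospora takes it up through cellodextrin transporters and splits it with beta-glucosidases outside and inside the cell, so that the intact strain soon meets glucose. Glucose and sucrose repress the genes for poorer carbon sources through the regulator CRE-1, while CLR-1, CLR-2 and XLR-1 activate cellulase and xylanase genes.

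On cellobiose the cellodextrin transporter genes cdt-1 and cdt-2, 3 beta-glucosidase genes (gh1-1, gh3-3, gh3-6), the glucose transporter gene hgt-1, and the genes for invertase (inv) and glucoamylase (gla-1) rose more than 10-fold over sucrose. Of 49 genes of amino acid synthesis 7 fell, as did 7 of 21 genes of mitochondrial protein import. Most cellulase genes did not pass the test. Of 8281 genes tested, 546 rose and 165 fell, which is 6.59% and 1.99% of those tested. A gene is said to have risen or fallen where limma, a linear model fitted to log2(FPKM + 1) of the 10 WT libraries, gave a Benjamini-Hochberg adjusted p under 0.05 and the difference was at least 2-fold. FPKM counts sequenced fragments relative to the length of the transcript and the size of the library. All 711 called genes lay outside the range of the 3 sucrose libraries, which the rules of a call favour, so this adds no separate support. The rises were the larger changes: their median was 2.30 on the log2 scale and 81 exceeded 4, whereas the median fall was -1.32 and the strongest was -3.05. By fold alone, with no test, 1723 genes (20.8%) were at least 2-fold higher and 611 (7.38%) at least 2-fold lower. These counts also require a cellobiose value outside the sucrose range. Genes listed at 0 in all 3 sucrose libraries were tested only because of their cellobiose value, so by either rule they could only be higher. The median difference of all genes tested was 0.10, and 2228 of them had an unadjusted p under 0.05.

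The single cellobiose library has no replicate, so the test assumes that it varies like the WT triplicates. The counts depended on the reference. Without sucrose replicate 1, 2 or 3 the rises numbered 866, 419 and 288 and the falls 666, 87 and 59. With only the 4 compared libraries fitted, 306 rose and 30 fell. The sucrose libraries are marked by the labels as copies of an earlier deposit, and the cellobiose library is not, so deposit and carbon source cannot be told apart in this comparison. The TBGK sucrose library, whose table has the format of the cellobiose one, is another reference, but against it strain and carbon source differ together. Of the 546 rises 380 were also at least 2-fold above TBGK sucrose, and 53 of the 165 falls were at least 2-fold below it. The falls were the smaller changes, so they miss that mark more easily. In 170 of the rises TBGK sucrose was itself at least 2-fold above the WT sucrose mean. Tested against TBGK sucrose, 1 library against 1, limma called 122 genes higher and 10 lower. Sucrose replicate 1 was the shallowest of the 3, with a deposited coverage of 61.9 per 1000 FPKM against 238 and 209 in replicates 2 and 3, and 2341 genes were listed at 0 there against 1645 and 1842. The cellobiose library had 1335 genes at 0, and its depth is unknown. FPKM summed to 5017876 on cellobiose and to 5272945, 7102823 and 7081784 in sucrose replicates 1, 2 and 3.

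**Figure D1:**
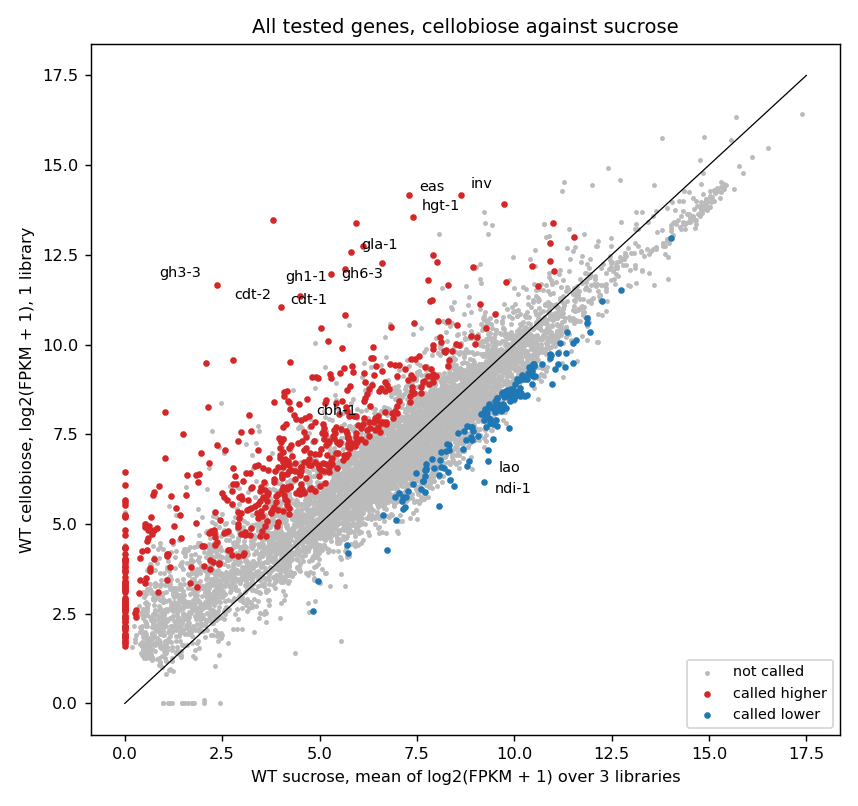
Level of each of the 8281 tested genes on sucrose (x axis, mean of log2(FPKM + 1) over 3 WT libraries) and on cellobiose (y axis, log2(FPKM + 1) of 1 WT library), with the line of equal levels. The 546 red points that rose reach farther from the line than the 165 blue points that fell. The column of red points at 0 on the x axis holds the 78 rises listed at 0 in all 3 sucrose libraries.

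The genes that bring cellobiose into the cell rose. The transporter gene cdt-2 (NCU08114, supercont10.1, 318872 to 321079) had an FPKM of 2126 on cellobiose and 5.58, 49.7 and 11.6 on sucrose. Its partner cdt-1 (NCU00801, supercont10.1, 7121828 to 7124065) had 1804 on cellobiose and 77.2, 53.1 and 28.4 on sucrose. Both cellobiose values stood above every sucrose library, with no overlap. On the log2 scale the rise was 7.04 (SE 0.92, adjusted p = 0.00444) for cdt-2 and 5.18 (SE 0.81, adjusted p = 0.00869) for cdt-1. The TBGK sucrose library had 9.46 for cdt-2 and 49.8 for cdt-1, within the range of the WT sucrose libraries. Neither gene reached its Avicel level: WT on Avicel had 34039.6, 64599 and 70796 for cdt-2 and 41156, 12847 and 13786 for cdt-1.

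The beta-glucosidase genes differed among themselves. For gh3-3 (NCU08755, supercont10.3, 5254974 to 5258174), which encodes an extracellular enzyme, FPKM was 3254 on cellobiose and 2.28, 10.1 and 2.82 on sucrose, a ratio of 642 to the sucrose mean and a rise of 9.30 on the log2 scale (SE 0.83, adjusted p = 0.0011). The intracellular enzyme is the product of gh1-1 (NCU00130, contig supercont10.3 from 2730965 to 2732948), whose FPKM was 2632 against 13.2, 47.1 and 16.0, a rise of 6.86 (SE 0.59, adjusted p = 0.000964). The third that rose, gh3-6 (NCU07487), went from 2.56, 2.13 and 1.43 to 81.5, a rise of 4.78 (SE 0.33, adjusted p = 0.000408). The call for gh3-3 and gh3-6 held under each of the 14 alternatives tried, while those of cdt-1, cdt-2 and gh1-1 were lost when only the 4 compared libraries were fitted. In contrast gh3-4 (NCU04952), the third gene deleted in TBGK, had 1.36 on cellobiose and 0, 0.98 and 0 on sucrose, too low to be tested, though WT on Avicel had 189 to 1827. The levels of gh3-5 and gh3-1 on cellobiose were 206 and 30.1 FPKM, against 81.6 to 144 and 8.97 to 14.6 on sucrose, and neither passed the test.

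The cellobiose dehydrogenase genes, whose products oxidise cellobiose rather than split it, did not pass either. The FPKM of cdh-1 was 23.2 on cellobiose and 16.7, 20.2 and 12.4 on sucrose, where WT on Avicel had 9524 to 21319.9. The second gene, cdh-2, was listed at 0 on cellobiose and in all 3 sucrose libraries. Of the 10 genes listed for cellobiose uptake and cleavage 8 could be tested, 5 rose and none fell, where 6.59% and 1.99% of all genes tested did. Their median difference was 4.98 against 0.10 for all genes tested. Set against no carbon source, 3 of the 10 were called higher on cellobiose and 2 lower, where 10.2% and 13.7% of all genes were. Set against Avicel none was called higher and 7 lower, where 8.85% and 9.76% of all genes were. These comparisons share the cellobiose library. The FPKM of gh3-3 on Avicel, 3441, 11177 and 11578, was the nearest of the 5 to its cellobiose level.

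**Figure D2:**
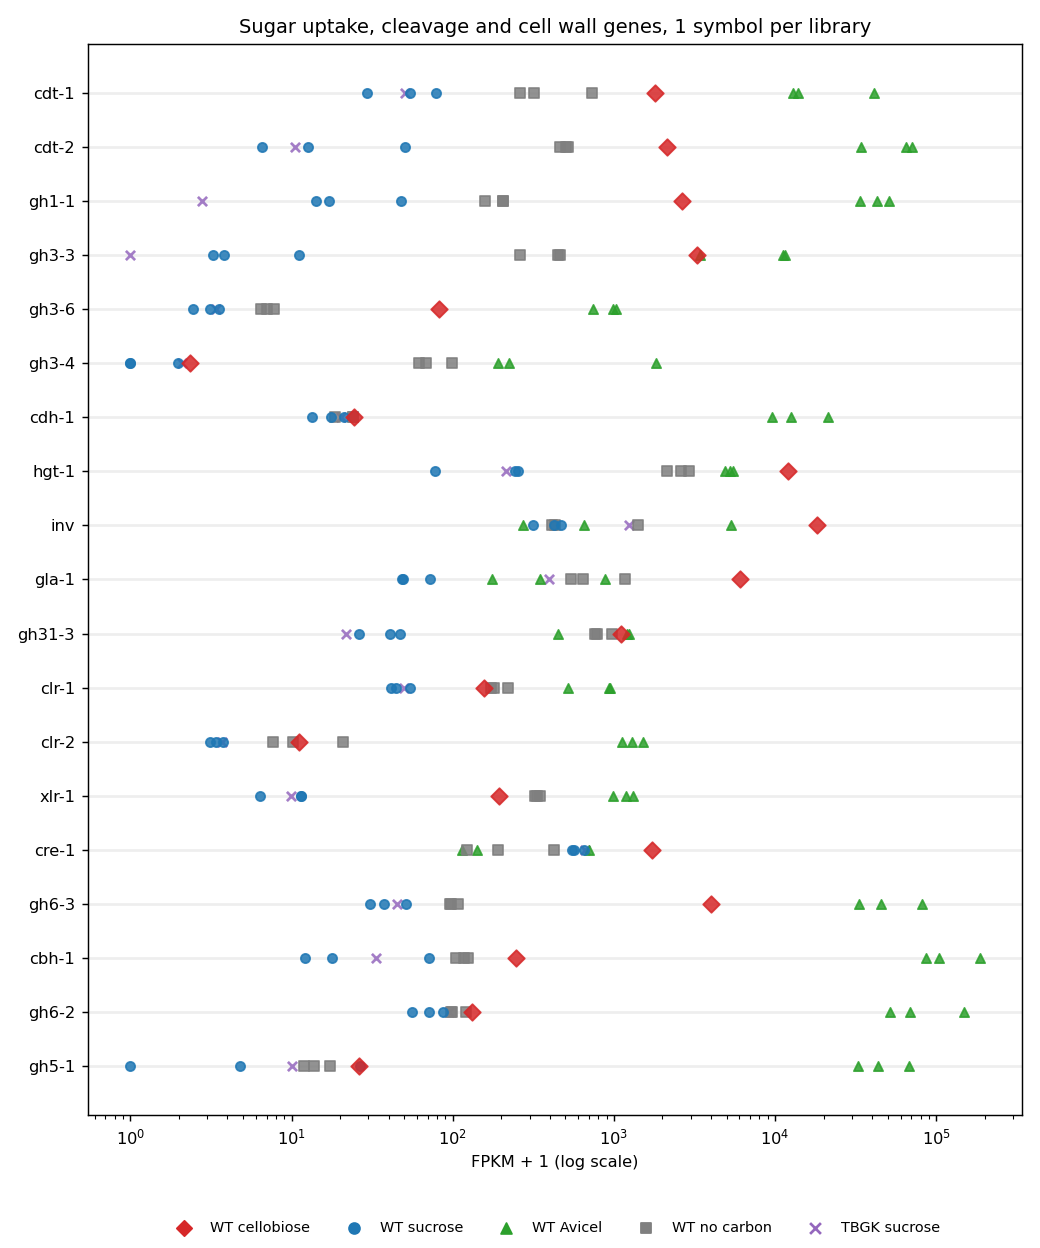
FPKM + 1 on a log axis for 19 genes of sugar uptake, cleavage and cell wall breakdown, 1 symbol per library: WT on cellobiose (red), sucrose (blue), Avicel (green) and no carbon (grey), and TBGK on sucrose (crosses). For cdt-1, cdt-2, gh1-1 and gh6-3 the cellobiose library lies between sucrose and Avicel; for inv, hgt-1, gla-1 and cre-1 it lies above all other libraries; for cdh-1, clr-2 and gh6-2 it lies near sucrose and far below Avicel.

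Genes for handling other sugars were among the most abundant on cellobiose. The gene for invertase, inv (NCU04265, supercont10.5, 5424522 to 5426869), the enzyme that splits sucrose, had an FPKM of 18250.1 on cellobiose and only 313, 426 and 468 on sucrose, its own substrate. It rose by 5.52 on the log2 scale (SE 1.38, adjusted p = 0.0421). TBGK on sucrose had 1234, above the WT sucrose libraries, and the call was lost against that reference, where the difference was 3.89, and under 4 other alternatives, which included leaving out sucrose replicate 2 or 3. The Avicel libraries were spread over 5334, 653 and 273. The high-affinity glucose transporter gene hgt-1 (NCU10021, supercont10.7, 2947616 to 2949846) had 11960.0 against 77, 242 and 252 on sucrose, a rise of 6.15 (SE 0.58, adjusted p = 0.00138). TBGK sucrose, at 212 FPKM, lay within the WT sucrose range for hgt-1. By contrast sor-4, a sorbose resistance gene, had 73.9 on cellobiose, inside its sucrose range of 41.3 to 100.3.

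Genes of starch degradation rose as well. Glucoamylase, which releases glucose from starch, is encoded by gla-1 (NCU01517, supercont10.2, 3214738 to 3217500), and its FPKM was 6072 on cellobiose against 70.9, 47.5 and 48.2 on sucrose. The rise was 6.77 on the log2 scale (SE 0.77, adjusted p = 0.00268). TBGK sucrose had 393, and against it the difference was 3.95 with an adjusted p of 0.11. The alpha-glucosidase family gene gh31-3 had 1098 against 25.1, 46.2 and 39.7, a rise of 4.90 (SE 0.56, adjusted p = 0.00274). The second glucoamylase gene, gla-2, had 204 against 33.7, 34.1 and 33.2, a rise of 2.56 (SE 0.21, adjusted p = 0.000804). TBGK sucrose had 31.3 FPKM for gla-2 and 20.8 for gh31-3. The alpha-amylase family gene gh13-1 rose by 1.03 (SE 0.24, adjusted p = 0.0331), the smallest of the 4 rises among 5 genes, and this call was lost under 6 of the alternatives, which included both other scalings. The list median was 2.56, and 6.59% of all genes tested rose. On no carbon source gla-2 and gh13-1 were called higher than on cellobiose, and gla-1 lower.

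Among the regulators 2 of 7 genes rose and none fell, with a median of 1.54, where 6.59% and 1.99% of all genes tested did. The xylanase regulator gene xlr-1 (NCU06971) had an FPKM of 193 on cellobiose and 5.39, 10.5 and 10.5 on sucrose, a rise of 4.36 on the log2 scale (SE 0.34, adjusted p = 0.000781). The cellulase regulator gene clr-1 had 156 against 53.0, 43.3 and 40.4, a rise of 1.76 (SE 0.36, adjusted p = 0.0208). The clr-1 call was lost under 4 alternatives, with an adjusted p of 0.149 against TBGK sucrose, and the xlr-1 call when only the 4 compared libraries were fitted. Its partner clr-2 had 10.2 against 2.13, 2.74 and 2.42, which lay outside the sucrose range but missed the threshold (difference 1.70, SE 0.50, adjusted p = 0.0707). WT on Avicel had 1122 to 1521 for clr-2, so cellobiose reached the no-carbon level, 6.63 to 19.7, and not the cellulose level. The repressor gene cre-1 had 1712 on cellobiose, higher than in each of the other 9 WT libraries, against 566, 551 and 649.7 on sucrose. Its difference of 1.54 did not pass (SE 0.97, adjusted p = 0.332), and its Avicel values of 699.5, 113 and 139.9 were widely spread. The levels of col-26, vib-1 and rco-1 did not pass the test, with differences of 1.14, 0.41 and 0.11.

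Most cellulase genes did not pass the test against sucrose and were far below their Avicel levels. The larger of 2 rises was that of gh6-3 (NCU07190, supercont10.5, 6293622 to 6294895), a family GH6 glycoside hydrolase gene, with an FPKM of 3989 on cellobiose against 29.8, 50.1 and 36.5 on sucrose. It rose by 6.68 on the log2 scale (SE 0.45, adjusted p = 0.000408), under each alternative tried, and stood above the no-carbon libraries, at 95.0 to 107, and below the Avicel ones, at 33297 to 81467. The cellobiohydrolase gene cbh-1 had 246 against 11.2, 70.2 and 16.7, a rise of 3.31 (SE 0.84, adjusted p = 0.044) that was lost under 6 of the alternatives. Its level on Avicel was 86756 to 186620.0. The second cellobiohydrolase gene, gh6-2, had 131 on cellobiose and 69.8, 86.1 and 54.7 on sucrose, a difference of 0.92 that did not pass. For the endoglucanase gene gh5-1 the cellobiose value of 25.3 lay inside the sucrose values of 0, 25.6 and 3.77. Of the 7 cellulase genes tested, 2 rose and none fell, with a median of 1.65, where 6.59% and 1.99% of all genes tested did. Against Avicel all 8 on the list were called lower on cellobiose, where 9.76% of all genes were.

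The lytic polysaccharide monooxygenase genes, whose products cut crystalline cellulose by oxidation, gave the same kind of picture in smaller numbers. Among all genes tested 6.59% rose. One of the 10 tested rose: gh61-3 had an FPKM of 328 against 29.6, 40.9 and 34.0, a rise of 3.21 (SE 0.37, adjusted p = 0.00274). By fold alone 9 of the 10 were at least 2-fold higher, with a median of 2.13, where 20.8% of all genes were, but 6 of these 9 genes, gh61-4 and gh61-6 among them, were listed at 0 in sucrose replicate 1. None of the 6 xylanase and xylosidase genes tested rose or fell at the adjusted threshold, none had an unadjusted p under 0.05, and their median was 2.11. The gene for xylose reductase, xr, the first enzyme of pentose use, had 590.4 against 63.0, 83.2 and 64.4, a rise of 3.07 (SE 0.73, adjusted p = 0.0377). This call was lost under 5 alternatives, which included leaving out sucrose replicate 2 or 3 and TBGK sucrose (adjusted p = 0.144). Of 3 genes of pentose catabolism xr alone rose, where 6.59% of all genes tested did. Xylulokinase (xyk-1, 151 against 80.2, 40.4 and 33.9) and xylitol dehydrogenase (xdh-1, 97.9 against 89.8, 52.2 and 50.7) did not pass.

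**Figure D3:**
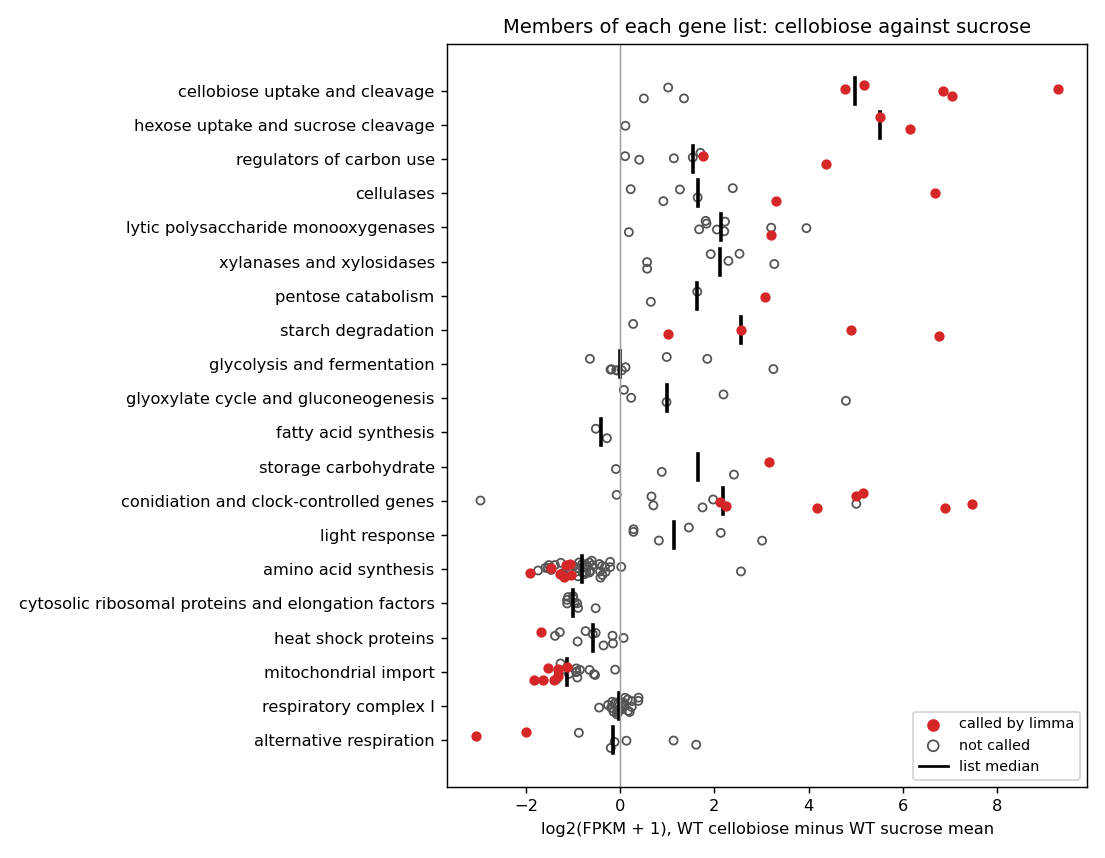
Difference in log2(FPKM + 1) between WT cellobiose and the WT sucrose mean (x axis) for each tested member of 20 gene lists (y axis); filled points were called by limma, open ones were not, and black bars are list medians. Lists of sugar uptake and cleavage lie to the right with medians of 4.98 and 5.52, complex I lies at -0.02, and amino acid synthesis and mitochondrial import lie to the left at -0.80 and -1.14.

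No glycolytic gene passed the test. None of 10 genes of glycolysis and fermentation was called against sucrose, nor had any an unadjusted p under 0.05, and the median difference was -0.01. Glyceraldehyde-3-phosphate dehydrogenase (gpd-1) had an FPKM of 52699.6 on cellobiose and 68658, 40638 and 41292 on sucrose. Pyruvate kinase (ace-8) had 6243 against 8873, 10532 and 9859.5. The alcohol fermentation genes were high but varied between the sucrose libraries: adh-1, for alcohol dehydrogenase, had 23805 against 12382, 2702 and 465, and cfp, for pyruvate decarboxylase, had 24434 against 34410.4, 4347 and 2083. Replicate 1, the shallow library, was the high one for both, and their differences of 3.25 and 1.85 did not pass (SE 1.71 and 2.69). With sucrose replicate 1 left out, gpi-1 of this list passed as a rise. With Avicel replicate 1 left out as well, adh-1 also did. Against no carbon 5 of the 10 were called higher on cellobiose and none lower, where 10.2% and 13.7% of all genes were.

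Genes for making sugar from smaller carbon compounds did not pass. Of the 5, 1 had an unadjusted p under 0.05, as had 2228 of the 8281 genes tested. Phosphoenolpyruvate carboxykinase (acu-6), which opens gluconeogenesis, had 1485 against 115, 33.1 and 38.3, and fructose bisphosphatase (fbp-1) had 212 against 88.0, 37.8 and 28.3. Their differences were 4.79 and 2.19 with SEs of 2.38 and 0.74. When sucrose replicate 1 was left out, fbp-1 passed as a rise. The glyoxylate cycle genes acu-3 (isocitrate lyase, 451 against 524, 331 and 325) and acu-9 (malate synthase, 639.6 against 886, 202 and 188) lay inside their sucrose ranges. The fatty acid synthase genes did not pass, with differences of -0.52 and -0.28: cel-1 had 1528 against 1936, 2233 and 2409.6, and cel-2 had 1521 against 1889, 1724 and 1933. On no carbon cel-1 had 17.7 to 95.5 and on Avicel 19.7 to 30.9. Against both media the 2 genes were called higher on cellobiose, where 10.2% and 8.85% of all genes were. Among the storage carbohydrate genes, trehalase (tre-1) rose from 3.04, 11.1 and 10.5 to 72.4 (3.15, SE 0.79, adjusted p = 0.0428), a call that 8 alternatives ended. Glycogen synthase (gsy-1) had 1846 against 2038, 1937 and 1912.

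Of 14 conidiation and clock-controlled (ccg) genes, many of which are raised by starvation or by glucose loss, 7 rose and none fell. The median was 2.18, and 6.59% and 1.99% of all genes tested rose and fell. Among the 7 was con-13, listed at 0 in all 3 sucrose libraries and at 3.32 FPKM on cellobiose, so it could only be called higher. Against TBGK sucrose few genes of any kind were called, and most of this list was not. The median difference of the 13 tested there was 2.11. In the other direction ccg-4 had 1.66 FPKM on cellobiose against 6.37, 45.2 and 25.1 on sucrose and did not pass (difference -2.96, adjusted p = 0.088). TBGK sucrose was listed at 0 for ccg-4, so the direction turned against that reference. The hydrophobin gene eas (NCU08457), which encodes the coat protein of conidia, had an FPKM of 18527 against 62.5, 388 and 155, a rise of 6.89 (SE 0.97, adjusted p = 0.00573). The glucose-repressible gene ccg-1 had 15486 against 1411, 1327 and 328, a rise of 4.18 (SE 0.94, adjusted p = 0.0304). The conidiation genes con-8 and con-10 rose by 5.01 and 5.16 (SE 1.26 and 1.15, adjusted p = 0.0433 and 0.0293) but stayed low, at 124 and 65.4 FPKM. These 2 calls were lost under 6 and 7 of the alternatives, and that of ccg-1 under 6. Against TBGK sucrose the adjusted p was 0.277 for con-8, 0.302 for con-10 and 0.257 for ccg-1. The regulator of conidiation fl rose from 28.1, 36.0 and 37.6 to 163, a difference of 2.24 (SE 0.48). TBGK sucrose had 71.6 for fl, above the WT sucrose libraries. Set against no carbon 6 of the 14 were called lower on cellobiose, where 13.7% of all genes were. Among the 6 were ccg-1 (171706 to 301939 with no carbon), con-10 (1399.9 to 2575) and ccg-4 (1034 to 1562). The no-carbon libraries were also above cellobiose for eas, at 65514 to 206272, without a call. The largest rise of the list, 7.46 for ccg-13 (SE 1.75, adjusted p = 0.0355), went past the no-carbon level: 10789.6 on cellobiose, 772 to 1562 on no carbon, and 123, 219 and 7.45 on sucrose. It lost its call under 3 alternatives, and against TBGK sucrose its adjusted p was 0.172. None of 6 light-response genes was called, and their median was 1.14. Of the 6, 2 had an unadjusted p under 0.05, as had 2228 of the 8281 genes tested. The carotenoid gene al-1 had 544 against 105, 51.1 and 54.9, and the clock gene frq had 294 against 196, 265 and 269.

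A minority of the genes of amino acid synthesis passed the test against sucrose, and which did so depended on the libraries fitted. Without sucrose replicate 1, ilv-5 passed as a rise and met-6 as a fall. Without Avicel replicate 1, ilv-2 and arg-2 passed as falls. The values that follow are from the main fit. Of 49 genes of amino acid synthesis 7 fell and none rose, where 1.99% and 6.59% of all genes tested did. A negative difference was seen in 47, and the median was -0.80. The largest difference in size was positive, that of the isoleucine and valine gene ilv-5, and did not pass (2.56, SE 0.84, adjusted p = 0.0967). Its FPKM was 484 on cellobiose against 233, 58.1 and 39.0 on sucrose. The strongest fall was aro-6, for the first step of aromatic amino acid synthesis, with an FPKM of 662 against 2004, 2928 and 2675 (-1.92, SE 0.49, adjusted p = 0.0441), a call that 7 of the alternatives ended. The leucine gene leu-1 had 1121 against 2778, 3374 and 3137, a fall of -1.46. The isoleucine and valine gene ilv-2 had 5529 against 12406, 16204 and 19370.2 and did not pass (difference -1.51, adjusted p = 0.128), but no carbon had 63.8 to 79.4 and Avicel 78.0 to 235. Against no carbon 36 of the 49 were called higher on cellobiose, and against Avicel 35, where 10.2% and 8.85% of all genes were. One went the other way: thr-5, named after its values were seen, had 148 on cellobiose and was called lower than on Avicel (-1.44). The TBGK sucrose library lay between the WT sucrose and cellobiose libraries in the mean log2 level of the list: 9.85, where WT sucrose had 10.12, 10.13 and 10.18, cellobiose 9.31, Avicel 6.87 to 7.30 and no carbon 6.79 to 6.83. Against TBGK sucrose, 1 library against 1, few genes of any kind were called lower, so the lack of calls among the 49 shows little. Their median difference there was -0.57.

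Of 21 genes of mitochondrial import 7 fell and none rose, with a median of -1.14, where 1.99% and 6.59% of all genes tested did. All 21 differences were negative, but that of tob55 was only -0.11, and its FPKM of 391 lay inside the sucrose values of 679, 283 and 387, as did tim9 and tim10 in theirs. The motor subunit gene tim44 had an FPKM of 210.4 against 678, 771 and 799 (-1.82, SE 0.30, adjusted p = 0.0105), and the channel gene tim23 had 249 against 674, 579.9 and 727 (-1.40, SE 0.26, adjusted p = 0.0167). TBGK sucrose had 583 and 577. Against that library none of the 21 was called, which shows little because few genes of any kind were called lower there. The median was -0.67, and the differences of tim44 and tim23 were -1.47 and -1.21. The carrier translocase gene tim22 and the small chaperone gene tim8 fell by 1.32 and 1.52, calls that 7 and 3 of the alternatives ended. The tim23 call was lost under 4. The mitochondrial chaperonin gene hsp60 had 705 against 1991, 2222 and 2555 (-1.67, SE 0.36, adjusted p = 0.0249) and was the single call among 11 heat shock genes, lost under 5 alternatives with TBGK sucrose among them. The mitochondrial tyrosyl-tRNA synthetase gene cyt-18, which also aids intron splicing there, had 65.8 against 319.8, 377 and 351 (-2.39, SE 0.28, adjusted p = 0.00289), and its call held under each of the 14 alternatives.

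Among respiratory genes the calls fell outside complex I. None of 29 complex I genes was called or had an unadjusted p under 0.05, and their differences ran from -0.45 to 0.39 around a median of -0.02. Of 8 alternative respiration genes 2 fell, where 1.99% of all genes tested did. The alternative NADH dehydrogenase gene ndi-1 (NCU00153) had an FPKM of 71.3 against 262, 819 and 990.2, the strongest fall of all (-3.05, SE 0.72, adjusted p = 0.0367), and nde-2 had 721 against 1731, 3537 and 3964 (-2.0, SE 0.44, adjusted p = 0.0287). The ndi-1 call was lost under 6 of the alternatives and that of nde-2 under 5. Both were lost against TBGK sucrose, where they had 396 and 1580.0 FPKM and differences of -2.46 and -1.13. The alternative oxidase gene aod-1 had 760.0 against 737, 192 and 291, with sucrose replicate 1 the high one again. The dehydrogenase gene nde-1 had 306 against 193, 73.8 and 68.8 and did not pass, but it passed as a rise with sucrose replicate 1 left out.

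The genes of cytosolic ribosomal proteins and elongation factors differed between the sucrose libraries. All 9 had a negative difference, with a median of -0.99, and none was called or had an unadjusted p under 0.05. For crp-2 the FPKM was 13139 on cellobiose and 16016, 38820.5 and 37814 on sucrose, and TBGK sucrose had 13284. It passed as a fall, as did crp-3 and crp-5, when sucrose replicate 1 and Avicel replicate 1 were both left out. The mean log2 level of the 9 was 14.09 on cellobiose and 14.25 in TBGK sucrose, against 14.46, 15.33 and 15.37 in WT sucrose replicates 1, 2 and 3. Cellobiose thus lay close to TBGK sucrose and to WT replicate 1, and apart from the other two. No carbon had 10.91 to 11.88 and Avicel 10.75 to 12.58, and 7 of the 9 were called higher on cellobiose than on no carbon, and 7 than on Avicel. Of all genes 10.2% and 8.85% were.

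**Figure D4:**
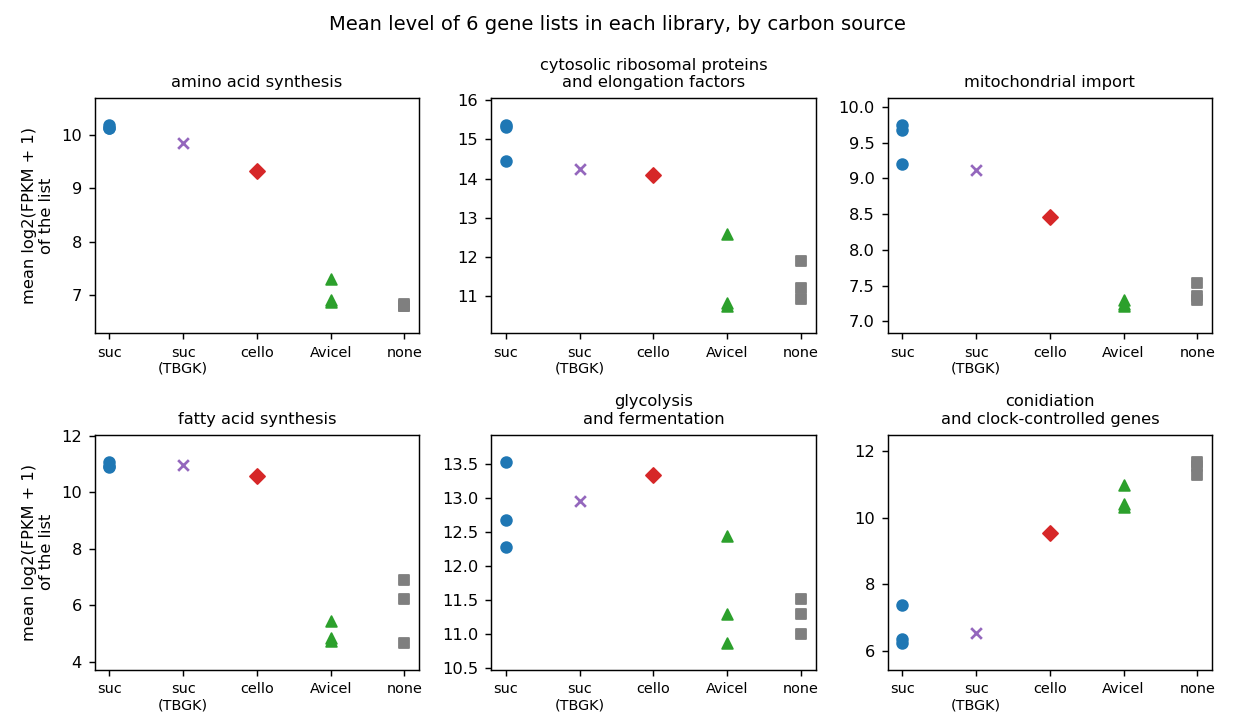
Mean log2(FPKM + 1) of the members of 6 gene lists in each library (y axis, scale differs between panels, not starting at 0), by carbon source (x axis: WT sucrose, TBGK sucrose, WT cellobiose, WT Avicel, WT no carbon). For amino acid synthesis cellobiose, at 9.31, lies nearer to sucrose (10.12 to 10.18) than to Avicel or no carbon (6.79 to 7.30); for conidiation and clock-controlled genes it lies between sucrose (6.25 to 7.39) and no carbon (11.28 to 11.69) at 9.53.

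Across all genes the largest rise belonged to NCU05897 (supercont10.7, 52952 to 55087), a gene without a symbol, with an FPKM of 11341 on cellobiose and 14.2, 12.5 and 12.4 on sucrose. It rose by 9.66 on the log2 scale (SE 1.22, adjusted p = 0.00396), under each alternative tried, and TBGK sucrose had 26.1. Next to gh3-3, cdt-2, gh1-1, gla-1, ccg-13 and eas, the 10 largest rises held 3 more genes without a symbol. NCU04522 had 753 against 9.48, 5.91 and 3.38, a rise of 6.79 that held under each alternative, and 15.5 to 25.1 with no carbon. NCU09287 (714 against 0, 11.4 and 5.11) and NCU03648 (279.5 against 0, 2.5 and 1.5) were in contrast higher still on no carbon, at 3548 to 5127 and 1303 to 1615. The level of the low-expressed rises is less firm: 78 of the 546 were listed at 0 in all 3 sucrose libraries, as were 215 of the genes tested. These 215 entered the test only through their cellobiose value, so the direction of the 78 was fixed in advance. A mean of the group means under 10 FPKM was found in 96 of the rises.

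Among the 10 strongest falls the L-amino acid oxidase gene lao (NCU01066) had an FPKM of 106 against 786, 530.0 and 616, a fall of -2.57 (SE 0.29, adjusted p = 0.00237). TBGK sucrose had 240.2, between cellobiose and the WT sucrose range. NCU07338, without a symbol, had 44.1 against 332, 237 and 236 (-2.56, SE 0.36, adjusted p = 0.00551), but TBGK sucrose had only 9.68, so that the direction turned against that reference. NCU01516 (203 against 826, 1005 and 994) and cyt-18 were the 2 of the 10 whose calls held under each alternative. NCU04942, NCU09852, NCU11889, NCU03768 and NCU07884 fell by 2.29, 2.45, 2.27, 2.16 and 2.14, and each lost its call when TBGK sucrose was the reference.

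None of the 5 most abundant transcripts on cellobiose passed the test. The elongation factor gene tef-1 was first with an FPKM of 88284 against 154487, 176205 and 188323 on sucrose (difference -0.97, adjusted p = 0.398). NCU06110 (83061), the thiamine-repressible gene nmt-1 (56923), ccg-16 (55335) and gpd-1 followed. For nmt-1 the sucrose libraries had 50095, 26826 and 19898 and TBGK sucrose had 56159. The nearest to a call was ccg-16, with 13716, 14513 and 14062 on sucrose and a difference of 1.97 (SE 0.57, adjusted p = 0.0677).

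Some genes were higher on cellobiose than in any other WT library, a group chosen after its values were seen and given as a description. In 54 genes the cellobiose library was at least 2-fold above all 9 other WT libraries on the log2(FPKM + 1) scale, and in 3 it was at least 2-fold below all 9. Of the 54, 34 were also at least 2-fold above TBGK sucrose, 31 had an FPKM of at least 100, and 13 were under 10. By level the first was NCU01633, without a symbol, with 22147 on cellobiose, 3955, 4272 and 4026 on sucrose, 4833 in TBGK sucrose, 42.9 to 831 on Avicel and 61.9 to 117 with no carbon; its difference of 2.44 to sucrose did not pass (SE 1.34, adjusted p = 0.277). It was followed by inv, hgt-1, ccg-13, ncw-3 and ccg-14, with ncw-3 at 10399.6 and ccg-14 at 8700.4. NCU05627 had 4984 against at most 338 in any other WT library, and NCU00399 had 3568 against at most 372; against sucrose they rose by 5.69 and 4.02 (SE 0.76 and 0.72, adjusted p = 0.00458 and 0.0144). NCU04266 lies within the files' contig supercont10.5 from 5429594 to 5430479, close to inv, and rose from 198, 123 and 205 to 1558 (3.18, SE 0.45, adjusted p = 0.00599), although TBGK sucrose had 659.

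**Figure D5:**
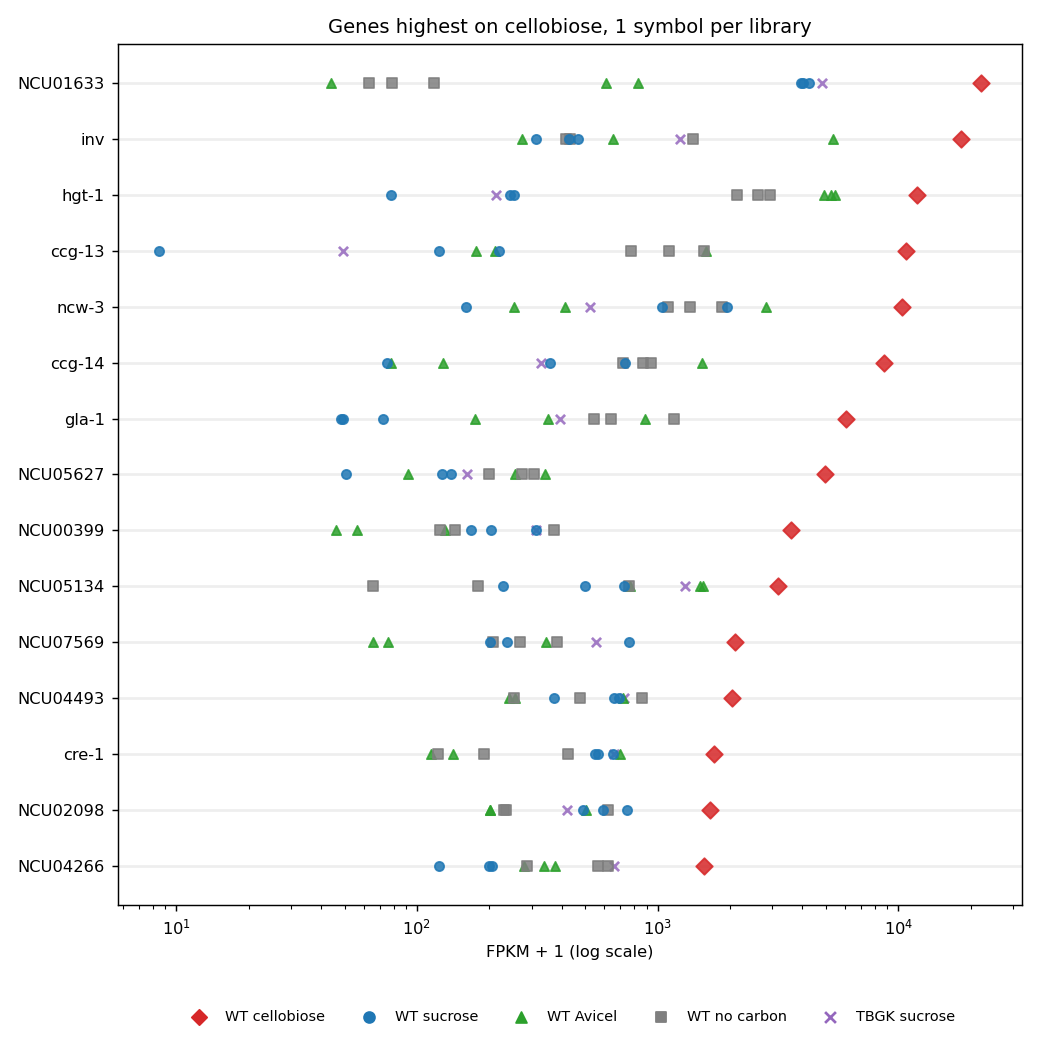
FPKM + 1 on a log axis, 1 symbol per library, for the 15 most abundant of the 54 genes that were at least 2-fold above all 9 other WT libraries on cellobiose. The gap to the next WT library is wide for NCU05627 (4984 against 338) and NCU00399 (3568 against 372) and narrower for cre-1 (1712 against 699.5).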

How the data were processed

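RNA of 13 libraries was sequenced by the authors, and the submitters' processing notes name TopHat, without a version, and Cufflinks 0.9.3. Which genome build was used is not given in the sources used here. The authors deposited FPKM for 9733 genes in the 4 single libraries and for transcripts in the 9 triplicate libraries, where rows were summed to genes here (164 genes had more than 1 row). The coverage column deposited by the authors with the triplicates was used only as a signal of depth. No counts were used, so no counting interval is given. Of the 9733 identifiers 9016 matched a gene table of assembly NC12 and 1106 had a symbol.

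Values were log2(FPKM + 1), and a fold on this scale understates the change of low genes. Genes with a mean of the 2 group means of at least 1 FPKM were tested. limma 3.58.1 (R 4.3.3, intensity trend, Benjamini-Hochberg adjustment over all genes tested) was fitted to the 10 WT libraries in 4 groups, so that Avicel and no-carbon triplicates share in the estimate of spread. The strain by carbon source interaction was fitted to all 13 libraries. The labels describe the triplicates as biological. The fit was also run on simulated data, in which the cellobiose library was given the spread of the triplicates. That run therefore cannot test whether the real library varies like them. Tables were made in Python 3.11.15 with pandas 2.3.3 and plots with matplotlib 3.10.9.

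The 20 gene lists and the genes in them were chosen with earlier results of these data known, and no list was tested as a set. Named genes were all members of the lists for cellobiose, hexoses and regulators, up to 6 members of largest difference from each other list, the 10 largest and 10 smallest differences among called genes outside the sucrose range, and the 5 highest FPKM on cellobiose. Added after the values were seen were the 15 most abundant genes at least 2-fold above all other WT libraries. Also added then were fl, con-13, leu-1, thr-5, ccg-4, tob55, tim9 and tim10. These last are not among the 137 named genes that were followed under the alternatives. Alternatives were other pseudocounts, filters and scalings, fits to other sets of libraries, TBGK sucrose as the reference, and leaving out libraries.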

Additional observations from a re-analysis of the deposited data

Results flagged for a closer look

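For 16 of the named genes the difference between cellobiose and sucrose was itself different in the WT and in TBGK, by limma's interaction term with Benjamini-Hochberg adjustment (155 of 8281 genes, or 1.87%, were called). TBGK had 1 library on each sugar, assumed to vary like the WT triplicates. Values are the WT difference minus the TBGK difference on the log2 scale.

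In 11 genes the WT difference was the lower one. Among the cellulase genes it was gh6-2 (-9.43), cbh-1 (-8.62), gh7-1 (-8.44) and gh6-3 (-4.34). For gh6-2 TBGK on cellobiose had an FPKM of 124112 and the WT 131, from 94.3 and 54.7 to 86.1 on sucrose. The others were the xylanase gene gh10-1 (-9.38), cdh-1 (-8.60), the regulator gene clr-2 (-6.27), gh61-3 (-5.25), gh3-6 (-5.12), NCU04522 (-4.92) and NCU07338 (-4.08). For clr-2 TBGK on cellobiose had 935.9 and the WT 10.2. NCU07338 was 9.68 in TBGK on sucrose and 332, 237 and 236 in the WT on sucrose, so its value rests on sucrose as much as on cellobiose.

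In 5 genes the WT difference was the higher one. For gh3-3 (7.17) and gh1-1 (5.26) the genes are deleted in TBGK, so this checks the strain. Both fatty acid synthase genes, cel-1 (6.22) and cel-2 (5.81), and NCU09852 (4.39) were the others: cel-1 had 1528 in the WT and 18.1 in TBGK on cellobiose, with 1936 to 2409.6 and 2040.1 on sucrose.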

How the results depend on the processing

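All 48 called of the 137 named genes kept their direction under the 14 alternatives except NCU07338 (2.08 against TBGK sucrose), and 10 kept their call under each. Calls were lost by 34 with only the 4 compared libraries fitted, by 29 against TBGK sucrose, by 21 without sucrose replicate 3, by 16 under quantile normalization, by 15 without sucrose replicate 2 and by 13 or fewer elsewhere. The count of rises and falls became 206 and 82 under quantile normalization, 306 and 30 with only the 4 compared libraries, and 122 and 10 against TBGK sucrose; summed over lists it became 16 and 3, 13 and 3, and 12 and 0, from 25 and 17. The named genes called were 18 with the 4 libraries and 18 against TBGK sucrose. By fold alone, a pseudocount of 10 gave 1014 genes higher, and TBGK sucrose gave 1089 higher and 305 lower. Leaving out a sucrose library gave 288 to 866 rises, 59 to 666 falls, 1725 to 1778 higher and 481 to 1022 lower by fold, 14 to 33 rises and 1 to 32 falls in lists, and 27 to 59 named genes called. Chosen after seeing the data, leaving out Avicel replicate 1 gave 851 rises and 242 falls over all genes, and 26 falls in lists. Leaving out the 2 shallowest libraries, chosen likewise, gave 1332 rises, 907 falls and 1022 genes lower by fold over all genes. It also gave 42 rises and 46 falls in lists and 74 named genes called. The cause of these shifts was not tested. The median difference of all genes moved from 0.10 to -0.07 under quantile normalization, so a difference of that size has no fixed sign. No paired analysis was possible because cellobiose has 1 library and shares at most 1 replicate number with sucrose. The unknown depth of the cellobiose library limits what a value of 0 or a low FPKM there can show.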
